A study of Drosophila melanogaster with 4 samples.

Results

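The strongest sites of DREF on chromosome arms 2L, 3L, 3R and X of Drosophila melanogaster were followed from total to mitotic Kc167 cells. Members were chosen by the authors' score for a peak in the list of total cells: a score of 8.35 or more made a site strong, and 264 of the 1937 peaks of that list were such sites. Each was paired with the mitotic peak that overlapped it by at least 1 bp. Because that score selected the sites, total scores are given only as a description. The comparison set was the 991 weaker peaks of the same arms, of which 463 had a mitotic peak and 528 had none.

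Kc167 is a line of embryonic origin, grown here in serum-free medium and not further treated as far as the labels say. DREF was immunoprecipitated with a rabbit polyclonal antibody from formaldehyde-fixed chromatin and sequenced (ChIP-seq). The labels name 2 libraries of total cells and 2 of mitosis, and the authors deposited 1 peak list per condition. There are therefore no replicate values, the depth is unknown, and no test across libraries was possible. The sources used here do not say how mitotic cells were obtained or whether each list was called on reads of its own.

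DREF, which stands for DNA replication-related element factor, recognises a palindromic sequence through its zinc finger. That sequence is found in the promoters of many genes for replication and cell growth. It resembles the one bound by the insulator protein BEAF-32, and the submitters count DREF among the insulator proteins. In mitosis chromosomes condense and most transcription stops. Many factors leave the chromosomes at this stage, and a factor that stays at its sites is often described as a bookmark.

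Strong sites had total scores of 8.44 to 22.34, with a median of 10.71. The threshold lies just above the highest total peak without a mitotic peak on these arms, which scored 8.27 and is on 3R at 17313174 to 17314179. That all 264 strong sites had a mitotic peak is therefore a property of the rule, against 57.9% of all 1255 total peaks of the 4 arms. The weakest members were on X at 13306627 to 13307680 (total score 8.44, mitotic score 11.04), on X at 11261620 to 11262899 (8.47 and 11.23) and, on 3R, at 17233853 to 17234807 (8.50 and 14.85). Just outside the rule were peaks on 3L at 11203181 to 11204355 (8.33 and 10.66), on X at 5559553 to 5560536 (8.33 and 10.09) and on X at 21186546 to 21187557 (8.30 and 10.28), with a tie at 8.30 on 3L at 14624783 to 14626201 (mitotic score 10.47). The scores thus run on across the threshold without a break.

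The arms did not hold equal numbers of strong sites. There were 89 on 3R, 85 on X, 54 on 3L and 36 on 2L. As a share of the total peaks of the arm, this was 24.8% on X (95% interval 20.3 to 29.7%), 22.5% on 3R (18.5 to 26.9%), 17.9% on 3L (13.8 to 22.8%) and 16.7% on 2L (12.0 to 22.4%). These are exact Clopper-Pearson intervals, which allow for counting error alone and count each peak as independent, and those of all 4 arms overlap. Per Mb between the outermost total peaks, strong sites numbered 3.82 on X, 3.20 on 3R, 2.22 on 3L and 1.62 on 2L. The weaker sites gave a flatter series of 11.6 on X, 11.02 on 3R, 10.2 on 3L and 8.03 on 2L.

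The first question was whether the sites that ranked highest in total cells also ranked highest in mitotic cells. The site with the highest total score lay on 3L at 505377 to 506734. It scored 22.34 in total cells and 40.71 in mitotic cells. The next lay on 3R at 3635506 to 3636658, with scores of 21.58 and 44.94. These 2 sites changed places, the site on 3R being the highest of the strong sites by mitotic score. The third, on X at 8570418 to 8571564, had scores of 21.16 and 35.34 and ranked 6 by mitotic score. At a shared total score of 20.66, the site on 3R at 5925878 to 5927024 had a mitotic score of 38.65 (rank 4). Its equal on 3R at 12623807 to 12625083 had 28.75 (rank 22). Sites of one total score thus differed in mitotic score even among the strongest.

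Most sites that ranked high by total score also ranked high by mitotic score. Of the 20 strong sites with the highest total scores, 15 were among the 20 with the highest mitotic scores. Of the upper 50 sites 42 were in the upper 50 by mitotic score, and of the upper 132 sites 119 were in the upper 132. A longer list takes in more of the 264 strong sites by its number alone, so these shares are not compared with each other. The 264 highest mitotic scores of the 4 arms reached down to 12.38, and with ties at that score 267 of 735 mitotic peaks (36.3%) had it or more. Of the strong sites 227 of 264 did (86.0%, 81.2 to 89.9%). This was 35 of 36 on 2L, 45 of 54 on 3L, 74 of 89 on 3R and 73 of 85 on X. Another 39 of these mitotic peaks lay on weaker total sites. The highest of those was on 3R at 17405479 to 17406506, with a mitotic score of 16.19 and a total score of 7.11.

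Across the 264 strong sites the total and mitotic scores had a Spearman rho of 0.89 and a Pearson r of 0.931. Within single arms rho was 0.845 on 2L, 0.842 on 3L, 0.914 on 3R and 0.888 on X. The points are peaks of the same 2 lists and not replicates, and it is not known whether some reads entered both. Ranked among themselves, strong sites moved by a median of 19 places between the lists (95% interval of the median 16 to 22.5). The move was a median of 9.25 places in the 66 sites with the highest total scores and 18.75 in the next 66. It was 31.5 in the 67 sites after these and 30.0 in the lowest 65, where neighbouring total scores lie closest together. Sites at either end of the ranking can move in 1 direction only.

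**Figure D1:**
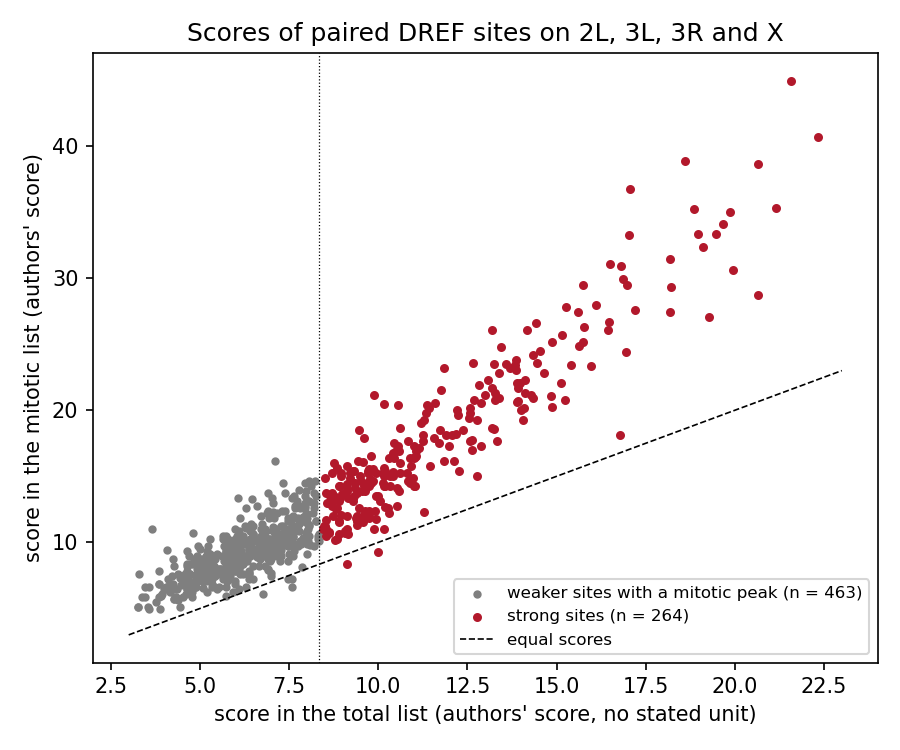
The authors' score in the mitotic list against the score in the total list for each paired site, with strong sites in red, weaker sites in grey, the threshold of 8.35 dotted and equal scores dashed. Strong sites reach 22.34 on the total and 44.94 on the mitotic axis, and 2 of them lie below the line of equal scores.

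At 262 of 264 strong sites the mitotic score was the higher one, against 99.2% of all 727 paired sites of the 4 arms. The unit and the zero of the scores are not stated, so ratios of the scores were not compared between sites. It is also not known whether the lists share a scale. A higher or lower mitotic score is therefore not read as more or less binding in mitosis. The median mitotic score was 25.9 in the 66 sites with the highest total scores, 18.1 in the next 66, 14.7 in the following 67 and 13.1 in the lowest 65. The mitotic score of single sites could lie far from the median of their group. A site on 3R at 22014129 to 22015230 had a total score of 17.07 (rank 19) and a mitotic score of 36.75 (rank 5).

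Some strong sites stood far from the rank they held in total cells, with ranks taken among the 264 strong sites. The site that moved up most was on X at 4216050 to 4217071, from rank 245.5 to 138.5 with scores of 8.76 and 15.99 (tied ranks averaged). Next was a site on 3L at 3615968 to 3617104, from rank 171 to 67 with scores of 9.88 and 21.17. The other sites of the 5 that moved up most were on X at 18408996 to 18409930 (9.45 and 18.47), on 3R at 19716304 to 19717313 (8.85 and 15.65) and on 3R at 17233853 to 17234807 (8.50 and 14.85). All 5 ranked 171 or lower by total score, where there is most room to move up.

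The site that moved down most was on 3L at 21128652 to 21129735, from rank 114 to 228 with scores of 11.27 and 12.27. This order rests on ranks among strong sites, which end at 264, and is another among all 727 paired sites. A site on X at 5631547 to 5632553 went from rank 164.5 to 263, with scores of 10.00 and 9.29. Among all paired sites it went from rank 164.5 to 487, and the site on 3L from 114 to 267.5. The site on X was 1 of the 2 strong sites whose mitotic score was the lower one. The other such site was on 3R at 11158371 to 11159391, with scores of 9.11 and 8.38, the lowest mitotic score of all strong sites. Among all paired sites that site went from rank 222.5 to 561.5, the longest way of any strong site. Further large moves down were seen at 22692046 to 22693118 of 3R (10.15 and 11.04), on X at 17545856 to 17547224 (12.78 and 15) and on X at 8982892 to 8984005 (9.89 and 11.04).

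The sites that moved most did not come from 1 arm. The 20 largest moves up included 7 sites on X, 6 on 3L, 4 on 3R and 3 on 2L. The 20 largest moves down included 8 on 3R, 5 on X, 5 on 3L and 2 on 2L. Their loss of width was close, with a median of 111 bp for the former and 122 bp for the latter. The distance to the nearest total peak was also close, with medians of 18.4 and 20.9 kb. An identical start was seen at 6 of the 20 sites that moved up and at 2 of the 20 that moved down, against 17.4% of all strong sites. An identical end was seen at 1 and at 0 of them, against 16.7%. Ranks among strong sites limit both sets, since sites near either end can move far in 1 direction only. Total scores ran from 8.50 to 11.85 in the sites that moved up and from 9.57 to 16.78 in those that moved down. The site on 3R at 11158371 to 11159391, with a total score of 9.11, was in neither set.

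**Figure D2:**
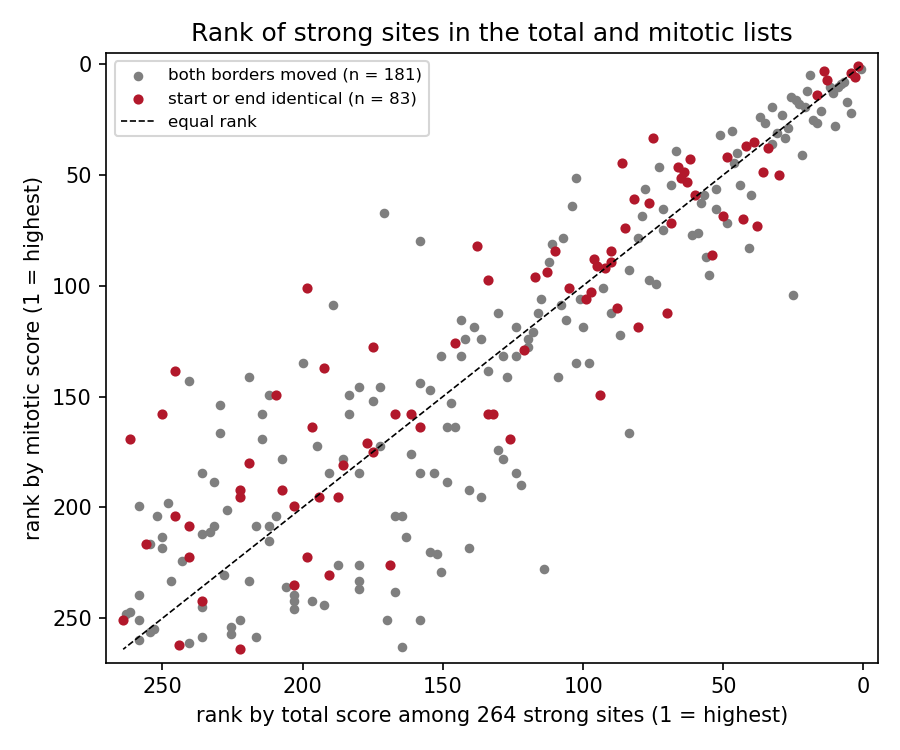
Rank by mitotic score against rank by total score among the 264 strong sites, 1 being the highest, with sites whose start or end is identical in both lists in red and all others in grey. Points lie close to the line of equal rank at the upper right and spread farther from it at lower ranks; the largest moves are 107 places up, from rank 245.5, and 114 places down, from rank 114.

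The second question was how the extent of a strong site differed between the lists. The median width of strong sites was 1094.5 bp in total cells (interquartile range of 1042.75 to 1158.75 bp) and 989 bp in mitotic cells (912.25 to 1055 bp). The mitotic peak was narrower at 257 of 264 sites, against 97.8% of all paired sites, and equally wide at 7. The median loss was 115 bp (95% interval of the median 102 to 132 bp), and a median of 89.7% of the width was kept. The median inward shift was 45.5 bp at the start (36 to 54 bp) and 50 bp at the end (42 to 61 bp). On X it was 39 bp at the start (23 to 59 bp) and 67 bp at the end (48 to 81 bp), with overlapping intervals. The shift of the start did not go with that of the end across sites (Spearman rho −0.018). The midpoint was displaced by a median of 25.5 bp, and by at most 50 bp at 184 of 264 sites (69.7%, against 69.3% of all paired sites).

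In 263 of 264 pairs the mitotic peak lay on or inside both borders of the total peak, against 99.9% of all paired sites. The exception was on X at 18922275 to 18923304, where the mitotic peak began 25 bp outside and ended 260 bp inside. Losses over 300 bp were seen at 30 strong sites (11.4%, 7.80 to 15.8%), against 14.7% of all paired sites. With only the stronger mitotic peak counted, the largest was on 3R at 27044787 to 27047447, a total peak of 2661 bp and the only strong site with 2 mitotic peaks. These lay at 27044873 to 27045980 (score 35.0) and at 27046026 to 27047419 (score 13.33), and joined into 1 span they left a loss of 114 bp. Next were sites on 3L at 16043675 to 16045535, which lost 895 bp, all of it at the end, and X at 17780196 to 17782055, which lost 620 bp, of which 543 bp at the start.

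Identical borders were frequent. The start was the same base pair in both lists at 46 strong sites (17.4%, 13 to 22.5%), against 13.5% of all paired sites. The end was the same at 44 (16.7%, 12.4 to 21.7%), again against 13.5%. A shift of 1 to 10 bp, a range of 10 positions, was seen at 14 strong sites at the start (5.30%, against 3.30% of all paired sites) and at 9 at the end (3.41%, against 3.58%). On X the start was identical at 22.4% of strong sites (14.0 to 32.7%) and the end at 8.24% (3.38 to 16.2%), with overlapping intervals. The other arms leaned the other way, with 19.4% at the start and 22.2% at the end on 2L. These shares were 14.8 and 22.2% on 3L and 13.5 and 19.1% on 3R. Weaker paired sites on X had 10.3% at the start and 12.7% at the end. At least 1 border was identical at 83 strong sites (31.4%, 25.9 to 37.4%), against 24.8% of all paired sites. Both were identical at 7 sites (2.65%), against 2.20%. The 5 of these with the highest total scores were the site on 3R at 3635506 to 3636658 named above and others on 3R at 10216598 to 10217546 (scores 15.97 and 23.38), on 3L at 11115819 to 11116878 (13.20 and 26.09), on 3R at 1996091 to 1997138 (12.69 and 20.76) and on 3R at 2534254 to 2535284 (12.63 and 17.76). What limits a border that is the same in both lists was not tested.

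**Figure D3:**
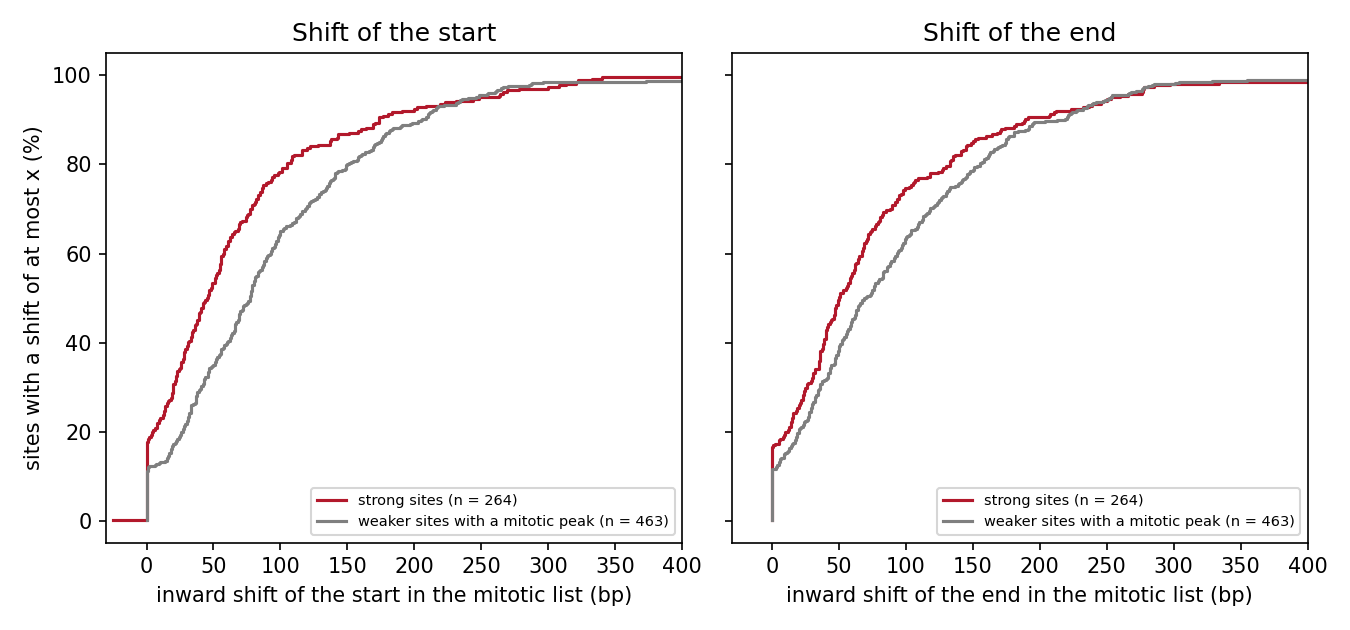
Cumulative share of sites against the inward shift of the start (left) and of the end (right) from the total to the mitotic list, in bp, for strong sites in red and weaker paired sites in grey. The step at 0 holds the identical borders, 17.4% of strong sites at the start and 16.7% at the end; shifts beyond 400 bp are not drawn.

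Strong sites with an identical border had somewhat higher median scores in both lists than those without one. Their median total score was 11.28 against 10.52, with overlapping intervals of the median (10.15 to 12.57 and 10.18 to 11.07). Their median mitotic score was 18.09 (15.42 to 19.8) against 15.8 (15.04 to 16.97), again with overlapping intervals. By rank, 52 of 83 sites with an identical border moved up between the lists (62.7%, 51.3 to 73.0%), as did 80 of 181 without one (44.2%, 36.8 to 51.8%). These intervals overlap narrowly, and the difference was not tested. This split was chosen after the ranks had been seen.

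Set against weaker sites, strong sites kept more of their width. The 463 weaker paired sites had a median width of 1019 bp in total and 874 bp in mitotic cells and lost a median of 163 bp (146 to 176 bp). The loss was smaller at strong sites on each arm. On 2L it was 87 against 145.5 bp, on 3L 123.5 against 177 bp, on 3R 119 against 150.5 bp and on X 130 against 179.5 bp. An identical border was also more frequent at strong than at weaker sites on each arm, at 41.7 against 20.9% on 2L, 33.3 against 19.4% on 3L, 28.1 against 21.6% on 3R and 29.4 against 21.4% on X. Peaks of 1 list are not replicates, and these differences carry no test.

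In a shared range of mitotic scores the classes lost nearly the same width, and identical borders were not more frequent at strong sites. Mitotic scores reached up to 16.19 at weaker sites and down to 8.38 at strong ones. The range compared was 10.28, the median of the whole mitotic list, to 16.19, and it was chosen after seeing the data. In this range 128 strong sites lost a median of 129 bp (111 to 146 bp) and 135 weaker sites 132 bp (108 to 157 bp). An identical border was seen at 25.8% of these strong sites (18.5 to 34.3%) and 31.9% of these weaker sites (24.1 to 40.4%). The 133 strong sites with higher mitotic scores lost 101 bp (86 to 123 bp), and 36.1% (27.9 to 44.9%) had an identical border. Weaker sites still had lower mitotic scores within the range (median 11.2 against 13.8) and lower total scores (7.34 against 9.465), so the match is not exact. The range also selects by mitotic score, and only 135 of the 463 weaker paired sites entered it. What the difference over all pairs follows was not tested.

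**Figure D4:**
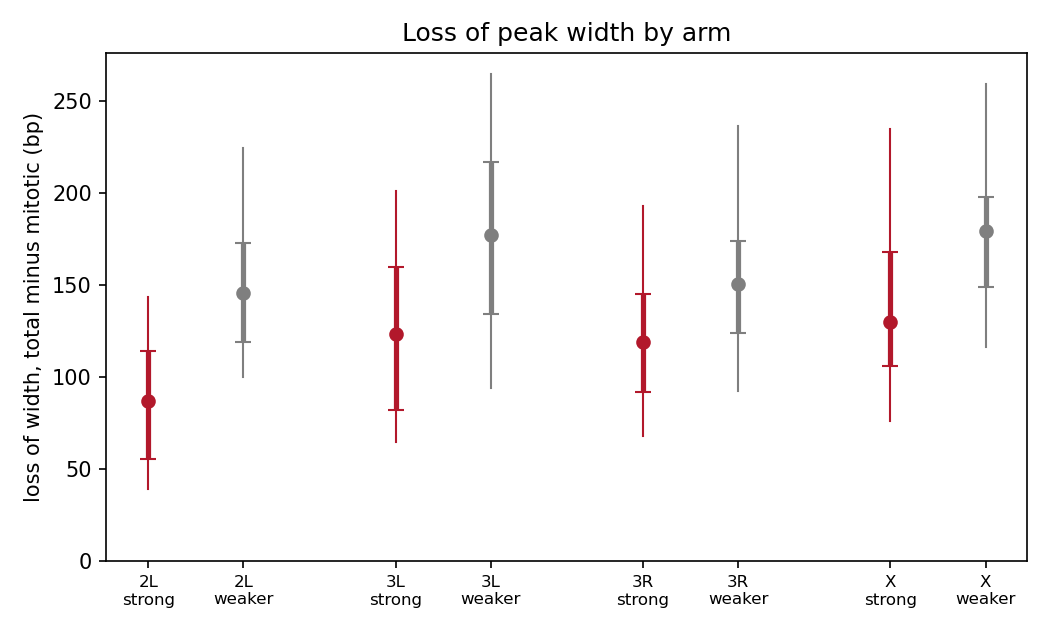
Loss of peak width from the total to the mitotic list, in bp, by arm, for strong sites in red and weaker paired sites in grey; points are medians, thick bars their 95% intervals and thin lines the interquartile range. The strong sites have the smaller median on each of the 4 arms, from 87 bp on 2L to 130 bp on X, and the intervals of the classes overlap except on 2L.

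The third question was how strong sites are spaced along the arms. Distances were taken between midpoints, and each site was measured to the nearest total peak of any score, so that both classes met the same set of neighbours. Strong sites lay a median of 22.9 kb from the nearest total peak (18.5 to 27.8 kb) and weaker sites 20.1 kb (18.2 to 22.6 kb). A neighbour within 10 kb was found at 66 of 264 strong sites (25%, 19.9 to 30.7%) and at 305 of 991 weaker ones (30.8%, 27.9 to 33.8%), against 29.6% of all total peaks of the 4 arms. By arm, this share was lower at strong sites on 2L, 3L and X and higher on 3R, and only on 3L were the intervals apart. Within 10 kb a neighbour was found at 7.41% of strong sites on 3L (2.06 to 17.9%) against 26.7% of weaker ones (21.3 to 32.7%), and on 3R at 34.8% (25 to 45.7%) against 27.7% (22.8 to 33.1%). It was 13.9% (4.67 to 29.5%) against 25.1% (19.0 to 32.2%) on 2L and 30.6% (21.0 to 41.5%) against 42.2% (36.1 to 48.5%) on X. The median distance was larger at strong sites on 2L (39.3 against 26.4 kb) and 3L (31.3 against 23.9 kb), and about the same on X (13.7 against 12.8 kb). On 3R it was smaller at strong sites (19.2 against 22.0 kb). The 95% intervals of these medians overlap between the classes on each arm.

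The nearest total peak was itself strong for 63 of 264 strong sites (23.9%, 18.9 to 29.5%) and for 192 of 991 weaker ones (19.4%, 17 to 22.0%), against 20.3% of all sites. Strong sites make up 21.0% of total peaks on these arms. The shares were close on 3L (16.7 against 16.2%), 3R (21.3 against 23.5%) and X (28.2 against 23.3%). On 2L they were 11 of 36 (30.6%, 16.3 to 48.1%) against 20 of 179 (11.2%, 6.96 to 16.7%), where strong sites make up 16.7% of total peaks. Strong sites that are nearest to each other count as 2 sites here, so these intervals are too narrow. Of 1251 pairs of total peaks that follow each other along an arm, 62 were of 2 strong sites. Strong sites stood singly between weaker ones in 156 cases, in runs of 2 in 33, of 3 in 10 and of 4 in 3. The runs of 4 covered 2534254 to 2648778 on 3R, 21597105 to 21818553 on 3L and 4216050 to 4561764 on X.

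Strong sites were a median of 116 kb from the nearest other strong site. Because a smaller class has wider gaps by its number alone, gaps were divided by their mean within each class. The median gap was 0.603 of the mean for strong sites (260 gaps, median 212 kb) and 0.549 for weaker sites (987 gaps, median 53.8 kb). For the weaker sites with a mitotic peak it was 0.630, above that of the strong sites. These values pool arms of unlike mean gap. The coefficient of variation was 1.25 for strong and 1.24 for all weaker sites. By arm, the scaled median was 0.687 on 2L, 0.669 on 3L, 0.642 on 3R and 0.688 on X for strong sites. For weaker sites it was 0.469, 0.577, 0.638 and 0.482 in the same order. The scaled median of all weaker sites was thus lower on 2L, 3L and X, and the classes were nearly alike on 3R. For weaker sites with a mitotic peak it was 0.621, 0.691, 0.625 and 0.572 in the same order. For those without a mitotic peak it was 0.590, 0.476, 0.683 and 0.594. On 2L and X each of these smaller sets lay above all weaker sites and below strong sites. On 3L the set with a mitotic peak lay above strong sites. How far the contrast on 2L and X follows the number of sites was not tested.

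**Figure D5:**
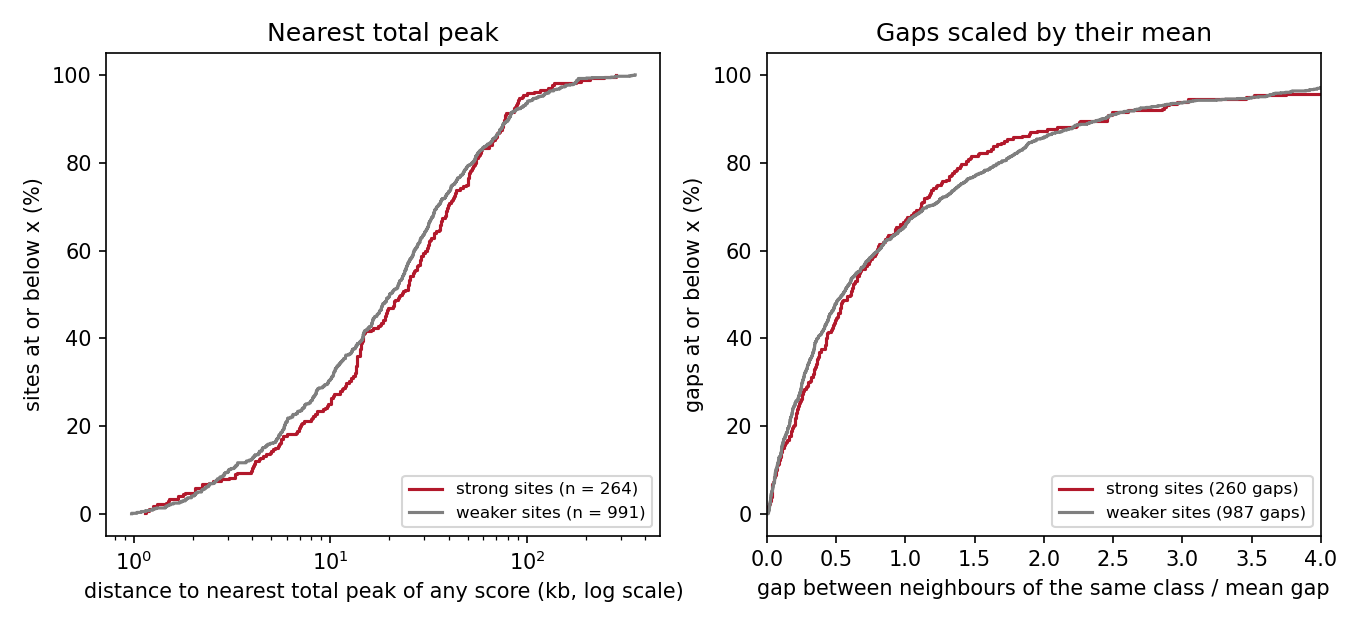
Left, cumulative share of sites against the distance to the nearest total peak of any score, in kb on a log axis; right, cumulative share of gaps between neighbours of the same class against the gap divided by its class mean, drawn to 4 times the mean. Strong sites are red and weaker sites grey, and the curves run close together, with medians of 22.9 and 20.1 kb on the left and of 0.603 and 0.549 on the right.

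Neighbouring strong sites lay within 10 kb of each other in 8 of 260 cases (3.08%), with a mean gap of 352 kb. For weaker sites it was 137 of 987 (13.9%), with a mean gap of 97.9 kb, so that the shares follow the number of sites as well and are not compared. The closest pair was on X at 14847585 to 14848645 and 14848795 to 14849937, 149 bp apart, with total scores of 8.91 and 8.95 and mitotic scores of 13.31 and 15. The next was on 3R at 26631967 to 26633349 and 26633880 to 26634804, 530 bp apart, with total scores of 9.74 and 14.34 and mitotic scores of 12.00 and 24.18. The third was on 3R at 2645565 to 2646737 and 2647621 to 2648778, 883 bp apart, with total scores of 9.39 and 12.37 and mitotic scores of 11.67 and 18.47. The members of each pair had separate mitotic peaks, and that each member had one is a property of the rule.

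At the other end, the most isolated strong site was on 3R at 23763048 to 23764146, 286 kb from any other total peak, with scores of 10.20 and 14.28. Next were a site on 2L at 11516672 to 11517828, 248 kb from any other (14.11 and 22.28), and one on X at 3028225 to 3029375, 209 kb from any other (15.63 and 24.84). The longest stretch without a strong site was on 2L at 8512517 to 11516671, where 14 weaker total peaks lay. On X the longest such stretch was 1319 kb and held 15 weaker total peaks. The densest 1-Mb bin for strong sites on X held 9 of them among 26 total peaks, at 18000001 to 19000000. On 3L the densest bin, 21000001 to 22000000, held 8 among 16. The densest bin held 7 among 26 on 3R and 4 among 17 on 2L. Each bin was picked as the highest of its arm, so these counts are descriptions. Over the whole arm strong sites made up 24.8% of total peaks on X, 22.5% on 3R, 17.9% on 3L and 16.7% on 2L.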

How the data were processed

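DREF ChIP-seq was made from total and mitotic Kc167 cells. Per the submitters' processing notes, alignment used Bowtie 0.12.5. How peaks were called, any pooling of libraries and the build were not given in the sources used here. Sequence names such as Uextra are those of Release 5. The genes at hand were of Release 6 and no genome was at hand, so no gene name or sequence is given. For each peak a deposited list has its borders and 1 number without a label. This deposited score is the authors' own and was used to order and describe peaks. Coordinates are 1-based.

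Computed here were pairs of overlapping peaks (at least 1 bp; the strongest mitotic peak where there were 2), ranks with ties averaged, border shifts and distances between midpoints. Intervals of shares are exact Clopper-Pearson intervals. Intervals of medians are 95% binomial intervals of order statistics. They cover counting error only and take peaks as independent. No test was run, since each condition has 1 list. The planned naming rule was kept: sites with the highest scores, the largest moves of rank and width, identical borders, those at the threshold, and the closest and most isolated. Sites named outside it are the one that reached rank 5, the mitotic scores under the total score, the highest mitotic peak on a weaker site, the peak that began outside, the first total peak without a mitotic one, and the runs, stretches and bins. The sites and measures were chosen with earlier results of these data known. The code was tested on simulated data. The software was scipy 1.17.1, pandas 2.3.3, numpy 2.4.6 and matplotlib 3.10.9 under Python 3.11.15.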

Additional observations from a re-analysis of the deposited data

How the results depend on the processing

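Of 87 alternative values, 79 stayed within the 95% interval of the reported one. Some of these could hardly move. Only the strong site on 3R at 27044787 to 27047447 had 2 mitotic peaks. Taking the mitotic peak with the longest overlap, or joining mitotic peaks, could change the peak of that strong site alone. Asking for an overlap of at least 50% of the mitotic peak left every value unchanged. The median rank move of strong sites was 12.0 places with a score threshold of 10, 15 without arm 3L, 12.5 without 3R and 13.5 without X. Fewer sites were ranked in each. With the stronger 50% of the mitotic list, weaker sites lost 132 bp and 31.9% had an identical border, as given in the report. The other values that moved were distances of weaker sites, 23.7 kb without X and 23.9 kb with neighbours under 2 kb merged. Ranks among all paired sites and joined mitotic peaks were alternatives added once the data had been seen, all others being planned. No paired analysis was possible because the lists carry no value for a single library; for this reason no library was left out either. Depth is unknown.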

Other observations

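The distances of strong sites to the nearest total peak were uneven between 11 and 17 kb. There were 27 of 264 strong sites at 13 to 15 kb (10.2%, exact interval 6.85 to 14.5%), 11 at 11 to 13 kb and 2 at 15 to 17 kb. Of weaker sites, 42 of 991 lay at 13 to 15 kb (4.24%, 3.07 to 5.69%), 37 at 11 to 13 kb and 32 at 15 to 17 kb. Of the 27 strong sites 14 had a strong site as the nearest peak (51.9%, 31.9 to 71.3%), against 23.9% of all strong sites. A pair of neighbours counts as 2 such sites. On X were 15 of the 27 (55.6%, 35.3 to 74.5%), against 32.2% of all strong sites. The window was chosen after seeing the distances, so these shares are a description without a test.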
